A study of Chlamydomonas reinhardtii with 9 samples.

Results

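The contrast described here set the mean of 2 mutants of the green alga Chlamydomonas reinhardtii, crpaf1-1 and crskip-1, against wild type (WT), each mutant with equal weight. It used 3 libraries of crpaf1-1, 3 of crskip-1 and 3 of WT, which are all 9 libraries of the series, and 13376 of the 14621 listed genes had enough counts to be tested. Per the labels, all 3 groups were strain CC5325, a laboratory strain of this unicellular organism, grown in liquid TAP medium at 22 °C with 14 h of light and 10 h of dark per day. Cells were taken late in G1, the growth phase that precedes division in this alga, and polyadenylated RNA was sequenced. The labels give no complemented line and no second allele of either gene, so each mutant stands for 1 line.

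PAF1 belongs to a complex that accompanies RNA polymerase II along transcribed genes and helps to deposit histone marks of active transcription. SKIP is a conserved component of the spliceosome that also has roles in transcription. The series title joins both proteins to CDKB, a cyclin-dependent kinase of the plant lineage that acts around mitosis. A change common to the 2 mutants is what the averaged contrast addresses, but a large change in 1 mutant alone also moves the average. For that reason the averaged values are set beside the difference between the mutants, crpaf1-1 minus crskip-1, which needs no WT library. The deposited tables and the reference table used pair no gene ID with a gene name, so genes are given by ID, position and exon structure. The levels of the 2 mutated genes were not analysed here, and the genotype labels were therefore not checked against them.

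The crpaf1-1 libraries held 16876166 to 19725439 counts, the crskip-1 libraries 13907142 to 16122105 and the WT libraries 14006299 to 16812251. Across genes, libraries of 1 group correlated at 0.993 to 0.995, and mutant libraries with WT libraries at 0.958 to 0.971 (Pearson's r of log2 CPM, the counts of a gene scaled to a common library size). Libraries of crpaf1-1 correlated with those of crskip-1 at 0.965 to 0.97. Per the file headers, lane 3 held the first replicate of every group and lane 2 held replicates 2 and 3. The labels do not say whether replicates were grown as separate cultures, and p-values therefore cover only the spread among these 9 libraries, which may be technical.

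Both mutants averaged differed from WT in 7242 genes, or 54.1% of those tested (adjusted p under 0.05, edgeR's quasi-likelihood F test with Benjamini-Hochberg adjustment over all tested genes). Of these, 3504 genes were higher in the mutants (26.2% of those tested) and 3738 were lower (27.9%). Most of these changes were small. The median log2 fold change was 0.31 among the higher genes and -0.46 among the lower genes, and it was 0.01 over all tested genes. Scaling the libraries to each other holds the last value close to no change. The shares higher and lower are therefore relative, and a change in total RNA per cell would not show. A 2-fold mark, an absolute log2 fold change of at least 1 in addition to the adjusted p, left 183 higher genes (1.37% of those tested) and 655 lower genes (4.9%). Thus 48.4% of the called genes were higher, whereas 78.2% of those past the 2-fold mark were lower. The higher gene nearest to the mark on the inside had a log2 fold change of 1.002 and the nearest outside 0.9944, so membership at the edge rests on small differences.

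The libraries were compared without a model by counting genes whose 6 mutant libraries all lay on one side of the 3 WT libraries. All mutant libraries lay above all WT libraries in 1957 genes (14.6% of those tested) and below them in 2349 genes (17.6%). Among genes called at 2-fold or more, 126 of the 183 higher genes (68.85%) and 580 of the 655 lower genes (88.55%) showed no overlap between mutants and WT. The called set as a whole held 1898 higher genes and 2297 lower genes without overlap. These counts come from the same libraries as the calls, so they describe the calls and do not add to their support.

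The per-library medians of the 2-fold genes show how each mutant contributed. The median distance from the WT mean of the 183 higher genes, in log2(CPM + 0.5), was 1.27, 1.17 and 1.30 in crpaf1-1 replicates 1 to 3. The crskip-1 medians were 0.79, 0.76 and 0.88, and those of WT 0.01, -0.01 and 0.03. For the 655 lower genes the medians were -1.34, -1.38 and -1.36 in crpaf1-1, -1.08, -1.05 and -1.25 in crskip-1, and -0.01, 0.01 and 0.01 in WT. Every mutant library was thus displaced in the direction of the average in both sets, crpaf1-1 farther than crskip-1, and replicates of 1 group lay close together. Since these genes were chosen by the averaged contrast, the displacement from WT is fixed by the choice, and the sizes are given as a description.

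**Figure D1:**
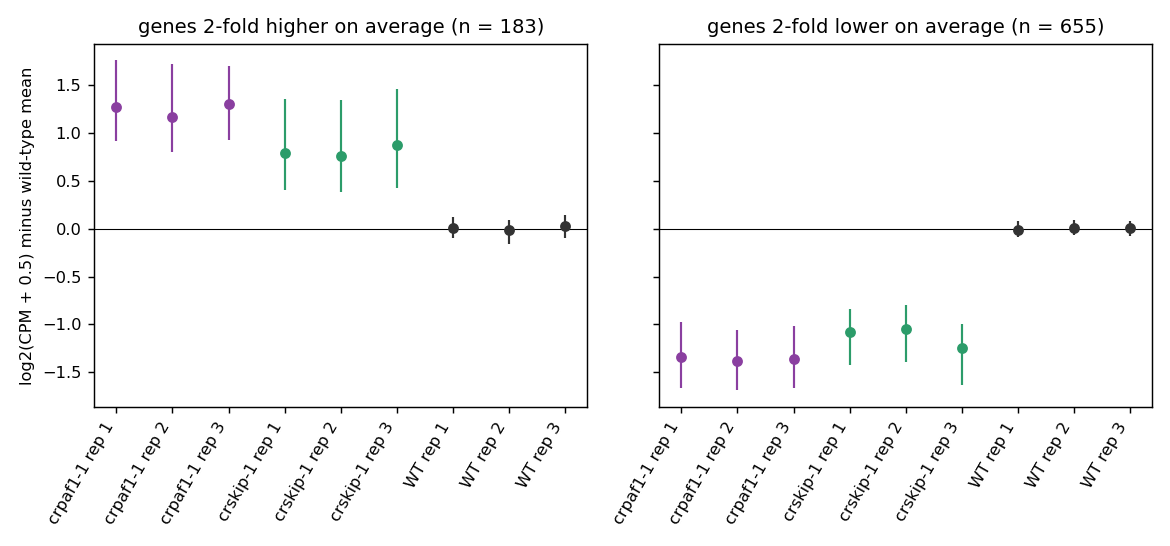
Distance from the wild-type mean, in log2(CPM + 0.5), of the 183 genes called 2-fold or more higher (left) and the 655 called 2-fold or more lower (right) in the averaged contrast. Each point is the median over genes in 1 library and each bar spans the 25th to the 75th percentile over genes; crpaf1-1 medians (1.17 to 1.30 and -1.38 to -1.34) lie farther from 0 than crskip-1 medians (0.76 to 0.88 and -1.25 to -1.05).

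The 2 mutants also differed from each other in 7202 genes (53.8% of those tested), nearly as many as the averaged contrast called. Of the 7242 genes called on average, 4343 (59.97%) had a called difference between the mutants and 2899 had none. The share was 59.28% among called higher genes and 60.62% among called lower genes, both not far above the 53.8% over all tested genes. Among genes not called on average, 2859 of 6134 (46.61%) differed between the mutants, with 1502 higher and 1357 lower in crpaf1-1. In 351 of these 2859 the difference was 2-fold or more, 228 of them higher and 123 lower in crpaf1-1. These differences are not seen in the averaged calls.

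The difference between the mutants was next read within the genes past the 2-fold mark. Of the 183 higher genes, 133 (72.68%) differed between the mutants, 97 of them higher in crpaf1-1 and 36 lower. The difference was itself 2-fold or more in 95 of the 183 (51.91%). Of the 655 lower genes, 426 (65.04%) differed, 306 of them lower in crpaf1-1 and 120 higher, and the difference was 2-fold or more in 137 (20.92%). A missing call is not equality, so the 95% interval of the difference was also used: it lay wholly within 2-fold for 55 of the higher genes (30.05%), for 340 of the lower genes (51.91%) and for 84.67% of all tested genes. Median log2 fold changes of the higher genes were 1.73 for crpaf1-1 and 1.21 for crskip-1, each against the same WT libraries. The lower genes had medians of -1.50 in crpaf1-1 and of -1.26 in crskip-1. No test compared the higher set with the lower set.

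**Figure D2:**
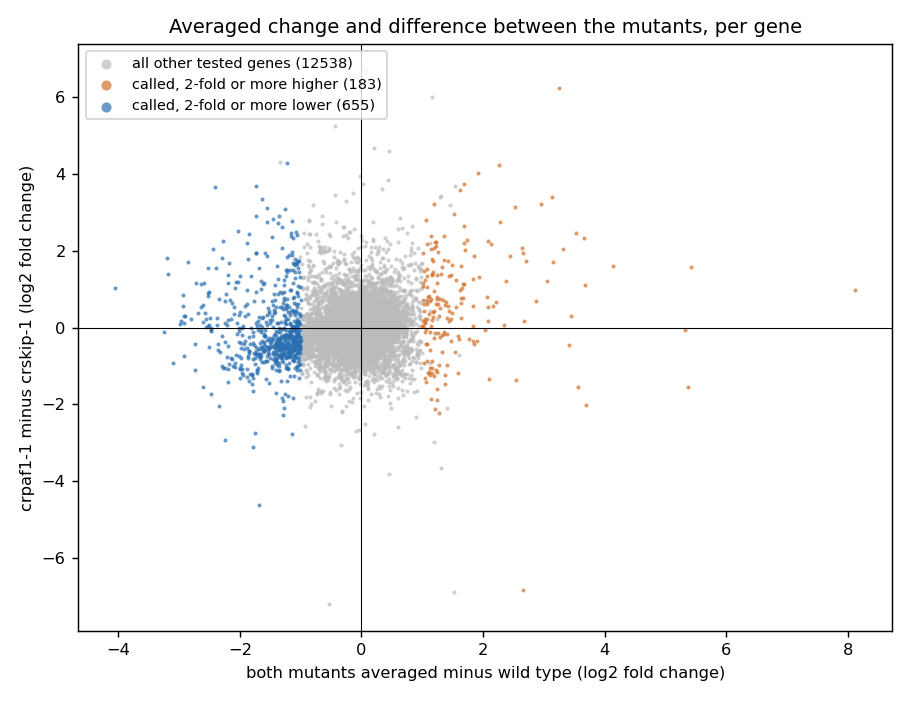
Each point is 1 of the 13376 tested genes, with the averaged log2 fold change of both mutants minus wild type on the x axis and the log2 fold change of crpaf1-1 minus crskip-1 on the y axis. The 655 genes 2-fold or more lower (blue) lie mostly within 1 log2 unit of 0 on the y axis, whereas the 183 genes 2-fold or more higher (orange) are fewer and more spread; the point farthest right is a gene without any count in wild type, whose fitted value depends on the prior count.

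The share of genes that differed between the mutants was then set against the size of the averaged change. Among called genes with a log2 fold change under 0.25 in size, 58.06% of 1166 higher genes and 63.34% of 791 lower genes differed between the mutants. Between 1 and 2 in size, it was 102 of 143 higher genes (71.33%) and 387 of 561 lower genes (68.98%). Among those at 2 or more in size (4-fold or more), it was 31 of 40 higher genes (77.5%) but 39 of 94 lower genes (41.49%). The share among lower genes thus did not fall steadily with size. The median absolute difference between the mutants was 1.56 on the log2 scale for these 40 higher genes and 0.72 for these 94 lower genes. No overlap between mutants and WT was seen for 85.0% of the 40 and 89.36% of the 94. The mutant mean was under 1 CPM in 29 of the 183 genes 2-fold higher (15.85%) and in 122 of the 655 genes 2-fold lower (18.63%), and the part of low counts in these shares was not tested.

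**Figure D3:**
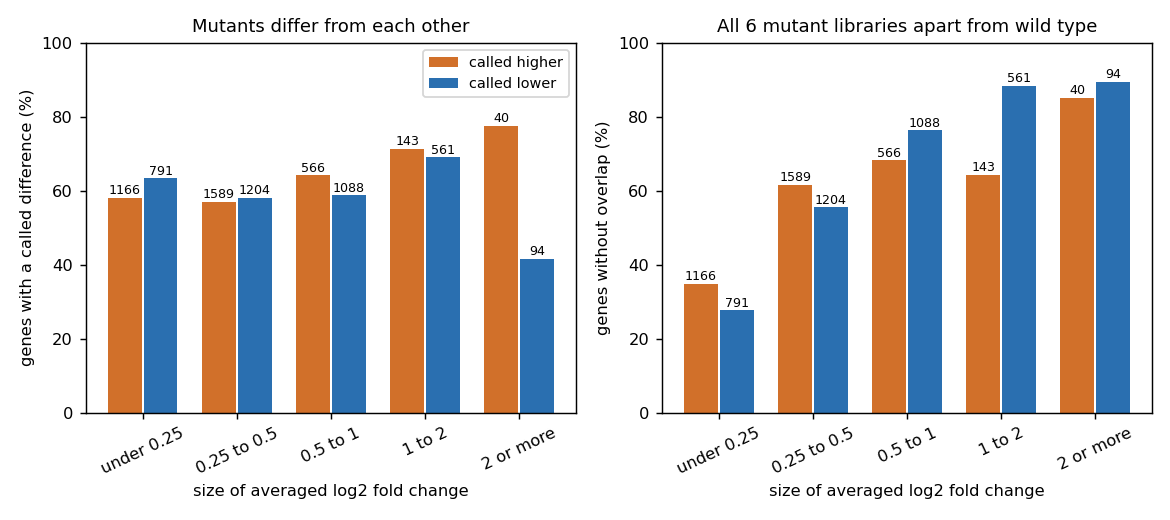
Share of called genes (%) in 5 classes of averaged log2 fold change size, for genes called higher (orange) and lower (blue), with the number of genes above each bar. Left, genes with a called difference between crpaf1-1 and crskip-1. It was called for 58.06% and 63.34% in the smallest class, 71.33% and 68.98% in the class of 1 to 2, and 77.5% and 41.49% in the largest. Right, genes whose 6 mutant libraries did not overlap the 3 wild-type libraries.

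The genes with the largest changes were ranked among 3771 called genes without overlap that reached a mean of 5 CPM in the mutants or in WT, 1747 of them above WT and 2024 below. Genes outside these limits reached larger fitted changes, which rest on lower counts or on libraries that overlap. The 15 highest had averaged log2 fold changes of 1.70 to 5.37 and lay on 8 chromosomes. The highest was Cre13.g801584_4532.v6.1, a gene of 1 exon block (a stretch of merged, overlapping exons) on the minus strand at chr13:5064977-5066137. It had 3.33, 2.91 and 3.44 CPM in crpaf1-1, 8.71, 9.90 and 9.72 CPM in the crskip-1 libraries, and 0.0578, 0.145 and 0.183 CPM in WT. It was thus near the detection floor in all WT libraries, where 1, 2 and 3 reads were counted, and clearly present in all 6 mutant libraries. The 589 reads of the mutants against 6 of WT, scaled for depth, gave a ratio of 46.3 (95% interval 21.2 to 127, counting error only). The averaged log2 fold change was 5.37 (SE 0.26, adjusted p = 2.5e-11), and crpaf1-1 lay below crskip-1 by a log2 difference of -1.54 (SE 0.13, adjusted p = 4.1e-08). This gene has no locus tag in the older gene set of assembly v5.5.

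The second was Cre01.g043817_4532.v6.1, with 3 exon blocks on the minus strand at chr1:6160632-6161987. Its levels were 45.5, 39.6 and 46.0 CPM in crpaf1-1, 11.6, 12.8 and 15.5 CPM in the crskip-1 libraries, and 2.43, 2.60 and 3.05 CPM in WT. The 3 groups did not overlap, with crpaf1-1 highest, crskip-1 between and WT lowest. The averaged log2 fold change was 3.16 (SE 0.12, adjusted p = 1.7e-12), made up of 4.02 in crpaf1-1 and 2.30 in crskip-1, with a difference between the mutants of 1.72 (SE 0.09, adjusted p = 1.6e-10). Its neighbour on the same strand, at chr1:6154942-6160554, was the fifth in rank. That gene of 15 exon blocks averaged 68.3 ± 4.61 CPM in crpaf1-1, 18.9 ± 1.04 CPM in the crskip-1 libraries and 6.59 ± 0.946 CPM in WT (SD, n = 3 each), with a difference between the mutants of 1.85 on the log2 scale. The neighbouring genes thus stood in the same order of groups. That neighbour overlaps 1 gene on the opposite strand, and since no source used here says whether counting used strand, its value is uncertain.

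The third and the fourth gene were carried mostly by crpaf1-1. The third, at chr12:6393551-6404504 with 19 exon blocks, had 52.1, 40.1 and 31.2 CPM in crpaf1-1, 2.84, 3.41 and 5.80 CPM in the crskip-1 libraries, and 0.983, 1.52 and 1.89 CPM in WT. Its log2 fold change was 4.82 in crpaf1-1 and 1.44 in crskip-1, and the mutants differed by 3.39 (SE 0.21, adjusted p = 6.1e-10). The fourth, at chr2:7880570-7887119 with 13 exon blocks, averaged 26.7 ± 0.669 CPM in crpaf1-1, 2.99 ± 0.297 CPM in the crskip-1 libraries and 1.56 ± 0.1 CPM in WT (SD, n = 3 each), a difference between the mutants of 3.15. In both genes crskip-1 lay above WT as well, and by far less than crpaf1-1.

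Only 1 of the 15 highest genes, the sixth at chr2:8472584-8476015 with 2 exon blocks, had no called difference between the mutants. It had 7.92, 7.37 and 7.89 CPM in crpaf1-1, 8.78, 6.28 and 6.90 CPM in the crskip-1 libraries, and 1.39, 1.74 and 1.34 CPM in WT. The mutants overlapped each other and both lay apart from WT. Its averaged log2 fold change was 2.35 (SE 0.16), and the difference between the mutants was 0.08 (95% interval -0.19 to 0.35). Of the other 14, 11 were higher and 3 lower in crpaf1-1 (53.8% of all tested genes differed). Mutant means of the 15 genes ran from 5.38 to 154 CPM and WT means from 0.128 to 34.9 CPM. The most abundant, ranked fourteenth at chr6:7206791-7212078, averaged 255 ± 9.82 CPM in crpaf1-1, 53.0 ± 5.72 CPM in the crskip-1 libraries and 34.9 ± 2.92 CPM in WT (SD, n = 3 each).

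The 15 lowest genes had averaged log2 fold changes of -3.25 to -2.63, and lay on 11 chromosomes. Cre17.g696700_4532.v6.1, with 3 exon blocks on the plus strand at chr17:100933-103134, ranked lowest. It had 3.33, 2.97 and 3.22 CPM in crpaf1-1, 4.12, 3.48 and 2.59 CPM in the crskip-1 libraries, and 30.7, 35.3 and 28.4 CPM in WT. All 6 mutant libraries lay far below WT, and the mutants overlapped each other. The averaged log2 fold change was -3.25 (SE 0.10, adjusted p = 1.7e-13), and the difference between the mutants was -0.11 (95% interval -0.48 to 0.26, adjusted p = 0.62).

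The second was Cre02.g096455_4532.v6.1, with 3 exon blocks on the minus strand at chr2:3142063-3144556. It had 0.61, 0.53 and 0.222 CPM in crpaf1-1, 1.01, 1.14 and 0.47 CPM in the crskip-1 libraries, and 6.07, 4.99 and 5.61 CPM in WT. The averaged log2 fold change was -3.10 (SE 0.21, adjusted p = 1.4e-09), and the difference between the mutants, -0.93 with a 95% interval of -1.75 to -0.12, lay at the threshold (adjusted p = 0.05). It overlaps 1 gene on the opposite strand and is therefore uncertain. The fourth, at chr12:8552806-8555700, averaged 5.15 ± 0.613 CPM in crpaf1-1, 4.49 ± 0.427 CPM in the crskip-1 libraries and 37.7 ± 3.42 CPM in WT (SD, n = 3 each). The thirteenth and most abundant, at chr17:1970592-1974205, had 22.5 ± 5.91 CPM in crpaf1-1, 17.1 ± 3.89 CPM in the crskip-1 libraries and 127 ± 15.5 CPM in WT. Across the 15 genes the log2 fold change lay between -3.57 and -2.06 in crpaf1-1 and between -3.36 and -2.53 in crskip-1. A difference between the mutants was called in 6 of the 15 and not in 9, against 53.8% of all tested genes. Mutant means of these 15 genes ran from 0.664 to 19.8 CPM, since they could meet the 5 CPM limit through WT alone. Those of the 15 highest ran from 5.38 to 154 CPM, so the counts of differing genes do not compare like with like. The part of low mutant counts in this was not tested.

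**Figure D4:**
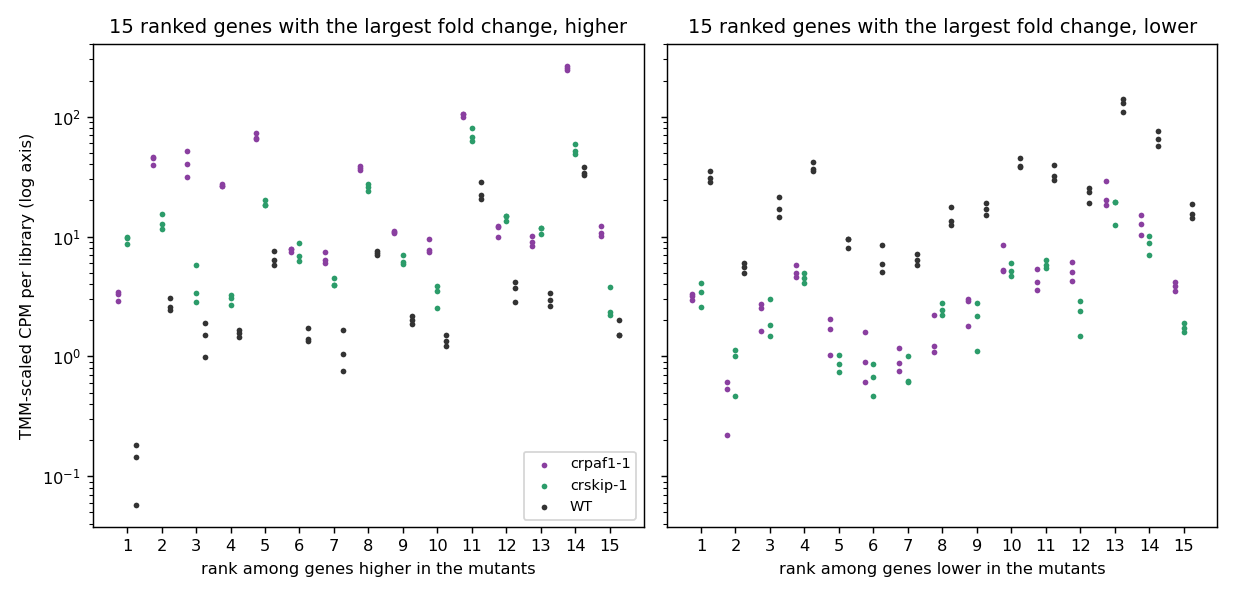
CPM in each library (log axis) of the 15 genes with the largest averaged fold change upward (left) and downward (right), by rank among called genes without overlap that reached 5 CPM, with crpaf1-1 (purple), crskip-1 (green) and wild type (dark grey) side by side. A difference between the mutants was called for 14 of the 15 higher genes and for 6 of the 15 lower genes, against 53.8% of all tested genes. Mutant means were 5.38 to 154 CPM in the higher genes and 0.664 to 19.8 CPM in the lower genes. The 2 counts therefore do not compare like with like.

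Of all tested genes, 1 had no count in any WT library and counts in all 6 mutant libraries, and none had the reverse. It was singled out after its values were seen, because it falls below the 5 CPM of the ranking. This gene of 7 exon blocks lies on the plus strand at chr2:915881-920243 and overlaps 1 gene on the opposite strand. It had 65, 55 and 53 reads in crpaf1-1, 20, 27 and 17 reads in crskip-1, and 0 reads in each WT library. Against a floor of 3 counts over the WT group, the mutants were at least 37.3-fold higher (adjusted p = 1.8e-08), and crpaf1-1 exceeded crskip-1 by 0.98 on the log2 scale (adjusted p = 0.001).

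Such genes of very low level in WT were common among the 2-fold higher genes. The WT mean was under 1 CPM in 95 of the 183 (51.91%), against 23 of the 655 lower genes (3.511%) and 3.514% of all tested genes. A WT mean above 10 CPM was found in 21 of the 183 and in 338 of the 655. The median level over all 9 libraries was 2.02 CPM for the higher genes, 6.57 CPM for the lower genes and 18.4 CPM for all tested genes. A higher and a lower gene do not have the same chance to pass the filter from a low WT level, so these shares are a description of what passed. Genes without a v5.5 locus tag made up 46 of the 183 higher genes (25.14%), 75 of the 655 lower genes (11.45%) and 7.117% of all tested genes. Among nuclear genes, 5.11% of those without the tag and 1.1% of those with it were 2-fold higher, while 5.56% and 4.67% were 2-fold lower. The mutants differed from each other in 47.0% of nuclear genes without the tag and in 54.2% of those with it.

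Level and structure moved with the direction of the called changes. In the class of highest level, of 5 equal classes (59.35 to 6851 CPM), 40.4% were called higher and 25.1% lower, against 14.3% higher and 28.6% lower in the class of lowest level (0.3018 to 5.568 CPM). A called difference between the mutants was found in 67.5% of the highest and 1125 of 2676 genes of the lowest class. In the class of longest exonic length, again of 5 (4783 to 72804 bases), 17.6% were called higher and 37.1% lower, whereas in the shortest class (186 to 1830 bases) 30.6% were higher and 20.2% lower. The shift kept its direction over the 5 classes, with the largest step at the longest. The median log2 fold change was 0.06 in the shortest, 0.004 in the fourth and -0.09 in the longest class. Of 607 nuclear genes of 1 exon block, 182 were called higher and 109 lower, and of 990 with 21 or more blocks, 204 were higher and 402 lower. Over all nuclear genes 26.3% were called higher and 27.8% lower. Past the 2-fold mark, 3.29% of the nuclear genes of 1 block were higher and 2.47% lower. With 21 or more blocks these shares were 0.404% and 7.68%, and over all nuclear genes 1.37% and 4.73%. The rank correlation of block number with the distance from the WT mean, across the 13376 genes, was -0.135, -0.0851 and -0.0922 in the crpaf1-1 libraries. It was -0.0292, -0.0387 and 0.00468 in the crskip-1 libraries, so it was weak and farther from 0 in crpaf1-1. The median log2 fold change of nuclear genes with 21 or more blocks was alike, -0.10 in crpaf1-1 and -0.08 in crskip-1. With 1 block it was 0.15 and 0.04. The 13376 genes include the organelle genes. For the averaged contrast the rank correlation with block number was -0.074 with them and -0.084 without. The rank correlation with exonic length was -0.13, -0.121 and -0.0894 in crpaf1-1 and -0.162, -0.162 and -0.109 in crskip-1, all negative. These values share the WT mean, and genes are not independent replicates. A called difference between the mutants was found in 51.2% of genes of 1 block and 54.9% of those with 21 or more, and in 54.2% of the shortest and 52.5% of the longest class. The separate parts of level, exonic length and block number were not tested.

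**Figure D5:**
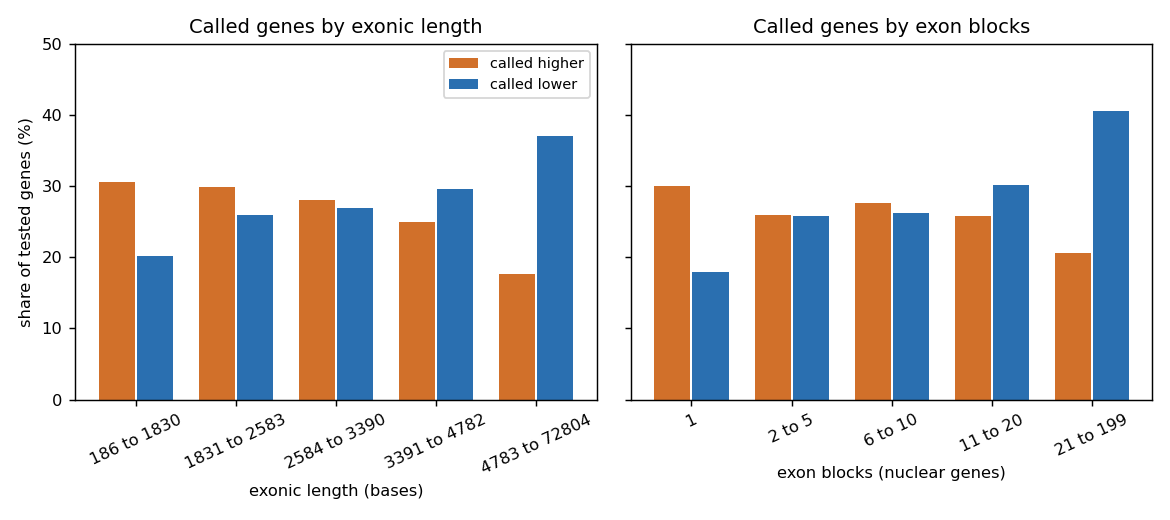
Share of tested genes (%) called higher (orange) and lower (blue) in the averaged contrast, by 5 equal classes of exonic length in bases (left) and by number of exon blocks of nuclear genes (right). The share called higher is 30.6% in the shortest and 17.6% in the longest class, and the share called lower 20.2% and 37.1%.

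The changes were spread over all 17 chromosomes. The share of genes called higher lay between 20.7% (chromosome 11) and 29.5% (chromosomes 13 and 15), and the share called lower between 19.6% (chromosome 15) and 31.0% (chromosome 9). The mutants differed from each other in 47.7% (chromosome 11) to 56.3% (chromosome 9) of the genes. Chromosome medians of the log2 fold change lay between -0.02 and 0.06. Chromosome 15 had the largest share of 2-fold higher genes, 3.2% of 281 tested genes, and chromosome 17 that of 2-fold lower genes, 6.68% of 808.

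Some genes past the 2-fold mark lay next to another of the same direction. An adjacent tested gene was also 2-fold higher for 22 of 182 nuclear 2-fold higher genes (12.1%), against 355 of all 13305 nuclear genes (2.67%). For the lower genes it was 96 of 629 (15.3%), against 1216 of 13305 (9.14%). Most runs of nuclear genes were pairs: 9 pairs and 1 run of 4 among the higher genes, and 41 pairs, 3 runs of 3 and 1 of 5 among the lower genes. The run of 4 higher genes lay within chr15:2449423-2592211, which lists 5 genes of which 1 was not tested, and 3 of the 4 were lower in crpaf1-1 than in crskip-1 (adjusted p under 0.05). The first of the 4 ended at 2452135 and the next began at 2569380, so the first lay far from the other 3. WT means of the 4 were 0.0589 to 2.98 CPM and mutant means 0.94 to 10.2 CPM, so some were near the detection floor. The run of 5 lower genes filled chr1:4042663-4062642, with no other listed gene inside, and 2 of the 5 were lower in crpaf1-1 than in crskip-1. These 5 genes were of low level, with mutant means of 0.627 to 0.971 CPM and WT means of 2.16 to 3.85 CPM. The ninth and twelfth highest genes are also neighbours, on opposite strands within chr6:4544928-4551109. The ninth had 10.8 to 11.2 CPM in crpaf1-1, 5.94 to 7.02 CPM in crskip-1 and 1.85 to 2.17 CPM in WT. The twelfth averaged 11.4 ± 1.17 CPM in crpaf1-1, 14.4 ± 0.649 CPM in the crskip-1 libraries and 3.59 ± 0.672 CPM in WT (SD, n = 3 each), so crpaf1-1 was the higher mutant in one and crskip-1 in the other. The part of reads shared by overlapping neighbours was not tested.

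The organelle genomes showed opposite averages. The plastome encodes subunits of the photosynthetic complexes and of the chloroplast's own gene expression, and the mitogenome of this alga encodes subunits of the respiratory chain. Organelle transcripts mostly lack long poly(A) tails, so oligo(dT) selection captures them in part only, and fewer transcripts and less capture cannot be told apart here. Of 63 tested plastome genes, 44 were lower on average, 0 were higher and 19 were not called, where 27.9% of all tested genes were lower and 26.2% higher. The average was carried by crskip-1: the median log2 fold change was -0.86 on average, -0.07 in crpaf1-1 and -1.69 in crskip-1. The mutants differed in 52 of the 63 genes, in each with crpaf1-1 higher (53.8% of all tested genes differed), and 38 of the 44 lower genes were among them. None of the 63 had all 6 mutant libraries below all WT libraries. Summed plastome counts were 331 ± 118 CPM in crpaf1-1, 113 ± 5.60 CPM in the crskip-1 libraries and 316 ± 95.3 CPM in WT (SD, n = 3 each). The 6 mutant libraries averaged 0.703 of WT, which an exact two-sided permutation test did not separate (p = 0.31, smallest possible 0.0238). This test, used below for the mitogenome as well, takes the 6 mutant libraries as alike and does not speak to either mutant alone. The plastome sums of crskip-1 (108 to 119 CPM) lay below those of every WT library (209 to 392 CPM). Those of crpaf1-1 (208 to 443 CPM) overlapped WT. The count of 44 also rested on single libraries: it was 25 without WT replicate 1 and 22 without WT replicate 2, and 19 in the 6 libraries of lane 2.

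Of the 8 tested mitogenome genes, 7 were higher on average and 1 was not called (26.2% of all tested genes were higher), and their log2 fold changes lay between 0.26 and 1.02. All 6 mutant libraries lay above all WT libraries in only 2 of the 8 (14.6% of all tested genes). A difference between the mutants was called for 1, at positions 518 to 1690 (53.8% over all tested genes). It had 68.9, 57.7 and 54.5 CPM in crpaf1-1, 32.6, 31.7 and 27.4 CPM in the crskip-1 libraries, and 32.3, 24.2 and 22.7 CPM in WT, so crskip-1 overlapped WT and crpaf1-1 stood above both (difference between the mutants 0.98, SE 0.11, adjusted p = 1e-06). The next gene on the same strand, at positions 1691 to 3044, had 21.4, 16.5 and 16.8 CPM in crpaf1-1, 16.9, 18.6 and 17.9 CPM in the crskip-1 libraries, and 14.0, 11.6 and 11.5 CPM in WT. Here the mutants overlapped each other and lay above every WT library (averaged log2 fold change 0.54, SE 0.10, adjusted p = 0.00014). Summed mitogenome counts were 243 ± 35.5 CPM in crpaf1-1, 169 ± 12.6 CPM in the crskip-1 libraries and 144 ± 27.7 CPM in WT (SD, n = 3 each), 1.43 times WT for the 6 mutant libraries together (exact two-sided permutation test, p = 0.0714). With TMM-scaled library sizes the ratio was 1.44 and the exact permutation p = 0.0476. With 1 library left out, ratios were 1.32 to 1.61 and exact permutation p-values reached 0.214.

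The averaged calls rest on a fit in which each mutant keeps its own mean. When the 6 mutant libraries were instead pooled as 1 group, so that their mutual difference counted as spread, 3698 genes were called, 1658 higher and 2040 lower. A test against a 1.5-fold change, in place of any change, called 1020 genes, 176 higher and 844 lower. All 4 genes given by ID were called in the same direction under each of 20 alternative settings. They were chosen as extremes among called genes without overlap in these same libraries. That choice nearly fixed this outcome, which therefore adds no support to the other calls.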

How the data were processed

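The authors deposited raw read counts per gene for 9 libraries, as whole numbers without normalization; the tools named in the submitters' processing notes are Bowtie2 and featureCounts, without versions. The libraries hold polyadenylated RNA per the protocols in the labels, although the labels' molecule field reads genomic DNA. Total counts of 13907142 to 19725439 per library set the precision; intervals on counts cover counting error only. Coordinates are as deposited, and the assembly is named only by the ID suffix.

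Groups were compared with edgeR 4.0.16 in R 4.3.3 (quasi-likelihood F test, TMM scaling, filterByExpr, 3 group means, no covariate; averaged contrast of weights 0.5, 0.5 and -1). The procedure was tested on simulated data with few changed genes, the same spread for every gene and no lane effect. That test does not cover data in which most genes are called. Each SE is the estimate over the square root of F. Gene CPM are TMM-scaled; organelle sums use total counts. A filter removed 1245 genes, 112 of them without counts. Genes were ranked among those called, without overlap and with at least 5 CPM in mutants or WT, and 2 IDs were printed each way. Of the deposited IDs, 13245 matched a v5.5 locus tag, and 0 of 17742 reference genes had a symbol, so the planned gene lists, the mutated genes and CDKB were not analysed here. The comparison and lists were chosen with earlier results of these data known. DESeq2 1.42.0, other scalings and filters, lane, replicate number and left-out libraries were alternatives.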

Additional observations from a re-analysis of the deposited data

Results flagged for a closer look

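Effects that differed between the 2 mutants, by the test of the difference itself (crpaf1-1 minus crskip-1, edgeR), were found for 4343 genes called on average, for 38 plastome genes called on average and for 2859 genes not called on average. Among the 5 genes with the highest averaged fold change of those called, without overlap between mutants and WT and with at least 5 CPM in either, the log2 difference was -1.54 for the first (chr13:5064977-5066137), 1.72 for the second (chr1:6160632-6161987), 3.39 for the third (chr12:6393551-6404504), 3.15 for the fourth (chr2:7880570-7887119) and 1.85 for the fifth (chr1:6154942-6160554). The first was thus higher in crskip-1 and the other 4 were higher in crpaf1-1.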

How the results depend on the processing

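No result reversed under any alternative. Counts of called genes over all compartments stayed within 1.5 times except when the mutants were pooled as 1 group (3698 called, 1658 higher, 2040 lower, 5 plastome genes lower, 4 mitogenome genes higher) and in the test against a 1.5-fold change (1020, 176, 844, 10 and 0), in which 17.3% of the called genes were higher. The 44 plastome genes lower also moved by more than 1.5 times in lane 2 alone (19), without WT replicate 1 (25) and without WT replicate 2 (22). The 2-fold higher genes with no called difference between the mutants numbered 50, but 79 without a filter on low counts and 76 with DESeq2. The mitogenome sum ratio was 1.44 (exact permutation p = 0.0476) with TMM-scaled sizes. It was 1.32 to 1.61 with 1 library left out (exact permutation p up to 0.214). DESeq2 called 6288 genes, 2987 higher and 3301 lower.

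Leaving out 1 library gave 6345 to 7062 called genes, 2930 to 3421 higher and 3365 to 3726 lower, 176 to 200 higher and 636 to 685 lower at 2-fold, and 22 to 52 plastome genes lower. The replicate block gave 7583 called genes, 3699 higher and 3884 lower, and lane as covariate 7581, 3701 higher and 3880 lower. Same-numbered libraries correlated at -0.0454 to 0.255 in their deviations, with 4 of 9 above 0.1. The pairs of replicate 1, which are the lane 3 libraries, stood at 0.177, 0.255 and 0.123. Of the 9 libraries, 5 correlated best with their own number. The main fit did not take the numbers as pairs, and these values do not show that lane or replicate number had no part. The fits with replicate block or lane called more genes than the main fit (7242). The median log2 fold change of all genes lay between -0.01 and 0.02 throughout. Every setting scales the libraries to each other, which holds this median close to no change. It therefore cannot show whether total RNA per cell differed. The TMM factors were 1.059 to 1.081 in crpaf1-1, 0.9176 to 0.9337 in crskip-1 and 0.9874 to 1.029 in WT. Depth limits genes under 1 CPM most, where a library holds few reads.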

Other observations

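The deposited tables list 14 genes on a separate sequence named mating_type_plus. They held 1 to 8 counts in all per mutant library and 2 to 5 per WT library, and 0 of the 14 passed the filter on low counts.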
